A study of Mus musculus with 5 samples.

Results

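Mouse miRNAs numbered 670 to 721 were followed through the differentiation of C2C12 cells on 2-colour spotted arrays. The members were all mouse probes whose name carried a base number in that range, whatever the arm or letter. This gave 45 of the 343 mouse probes on the array, each spotted 2 times, and 298 other mouse probes. Of the 45 members, 26 were detected on enough arrays of a stage to be tested. At a single stage 1 to 4 of them passed the test, while 0.556% to 28.3% of all 180 tested mouse probes did, and 6 members passed at 1 or more stages. miR-709 and miR-691 were higher than in the proliferating pool, and miR-690 and miR-699 were lower on day 4. The fall of miR-690 was not stable and passed in 12 of 23 alternative settings. The rise of miR-691 passed in 20 of 23 on day 4, but in 14 of 23 on day 2 and 8 of 23 on day 1. The rise of miR-709 passed in all 23 on day 4. Its calls at the other stages were lost when each print block was normalised apart. On day 1 alone, miR-671 passed as higher and miR-697 as lower, in 15 and 17 of 23 alternative settings.

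C2C12 is a mouse myoblast line, and confluent cells fuse into myotubes when the serum is lowered. There were 5 stages with 4 biological replicates each. The proliferating cells were harvested at 70 to 80% confluence and the confluent cells at 100% confluence. The other stages were taken 1, 2 and 4 days after confluent cells were put in 2% horse serum. Every array set 1 replicate beside a common reference, a pool of 4 proliferating replicates, so that 20 arrays were made. All groups came from the same unmodified line, and no other agent was given. A culture in low serum can hold unfused cells beside myotubes, and a change in each cell cannot be told apart here from a change in the share of cells of a type.

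A miRNA is cut from a hairpin transcript and guides Argonaute proteins to messenger RNAs, mainly through its seed, the bases from position 2 to position 8. Muscle differentiation is known for a strong rise of a few muscle-specific miRNAs, miR-1, miR-133a and miR-206 among them. The miRNAs in this range are of another kind. They were named in number order after late cloning from rodent tissue, most are weakly conserved, and they form no family or pathway. A few have described roles. miR-671 directs the cleavage of the circular RNA Cdr1as, miR-696 acts on Ppargc1a in mouse muscle, and miR-709 has been described in mouse cells as a nuclear miRNA that acts on the processing of the miR-15a/miR-16-1 transcript. miR-690 has been described in C2C12 cells driven towards bone, and miR-708 in quiescent mouse muscle stem cells. miR-720 is now regarded as a fragment of a transfer RNA, and miR-712 comes from a spacer of the ribosomal RNA precursor.

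The RefSeq table used here gave mature sequences for 34 of the 45 members, 18 of them among the 26 tested. The 11 members without a sequence here were miR-684, miR-685, miR-689, miR-694, miR-696, miR-699, miR-709, miR-712, miR-714, miR-715 and miR-720. The sequences of the changed or brightest members that could be matched are shown to let their seeds be compared. miR-721 was neither changed nor among the brightest and is added for its seed. Seeds are in capitals, sequences run 5′ to 3′, and positions are on GRCm38.p6.
miR-690: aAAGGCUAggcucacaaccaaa
miR-691: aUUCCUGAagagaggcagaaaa
miR-697: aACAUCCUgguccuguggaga
miR-671-5p: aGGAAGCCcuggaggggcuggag
miR-671-3p: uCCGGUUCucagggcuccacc
miR-705: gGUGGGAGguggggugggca
miR-711: gGGACCCGgggagagauguaag
miR-721: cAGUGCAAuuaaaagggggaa
The probe for miR-671 named no arm, so either strand of the hairpin may be the one measured. The 42 mature sequences of the 34 members had 42 seeds, and no seed was shared between members. The changed members shown here therefore share no seed with each other. The seed of miR-721 was also that of 6 other mouse miRNAs, among them miR-130a-3p, miR-130b-3p and miR-301a-3p. That of miR-705 was shared with 3 other mouse miRNAs.

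The members with a position lay on 15 chromosomes. Some were close neighbours, such as miR-697 and miR-698, the latter with an arm at chr4:124743818-124743838 on the plus strand. miR-690 lay at chr16:28599940-28599961 on the minus strand, within the bounds of Fgf12. miR-691 lay on the same chromosome at chr16:74342005-74342026, minus strand, within the bounds of Robo2. miR-697 was at chr4:124731768-124731788 on the plus strand, within the bounds of Sf3a3. The arms of miR-671 were at chr5:24592132-24592154 and chr5:24592171-24592191, plus strand, within the bounds of Chpf2. Whether these places are exonic or intronic was not analysed here. Of the changed members with a position, only miR-690 and miR-691 were on 1 chromosome, and these moved in opposite directions on day 4.

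The arrays gave the signal of a spot in a red and a green channel. A member counted as detected on an array and channel when its signal above background was over a limit set by the blank spots of that array and channel, the percentile 95 of 114 empty or negative-control spots. That limit ran from 145 to 424 in red and from 71.4 to 414 in green. Detected on every array in both channels were 16 of the 45 members (35.6%), against 49 of the 298 other mouse probes (16.4%). Those 16 were miR-709, miR-690, miR-711, miR-720, miR-691, miR-705, miR-671, miR-689, miR-710, miR-685, miR-678, miR-699, miR-706, miR-721, miR-697 and miR-700. To be tested, a probe had to be detected in the sample's channel on 3 or 4 arrays of some stage. For proliferating cells either channel counted. This held for 26 of 45 members (57.8%) and for 154 of 298 others (51.7%). Signals of different probes also reflect how well each probe binds, and no member's signal is set against another's as an amount.

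**Figure D1:**
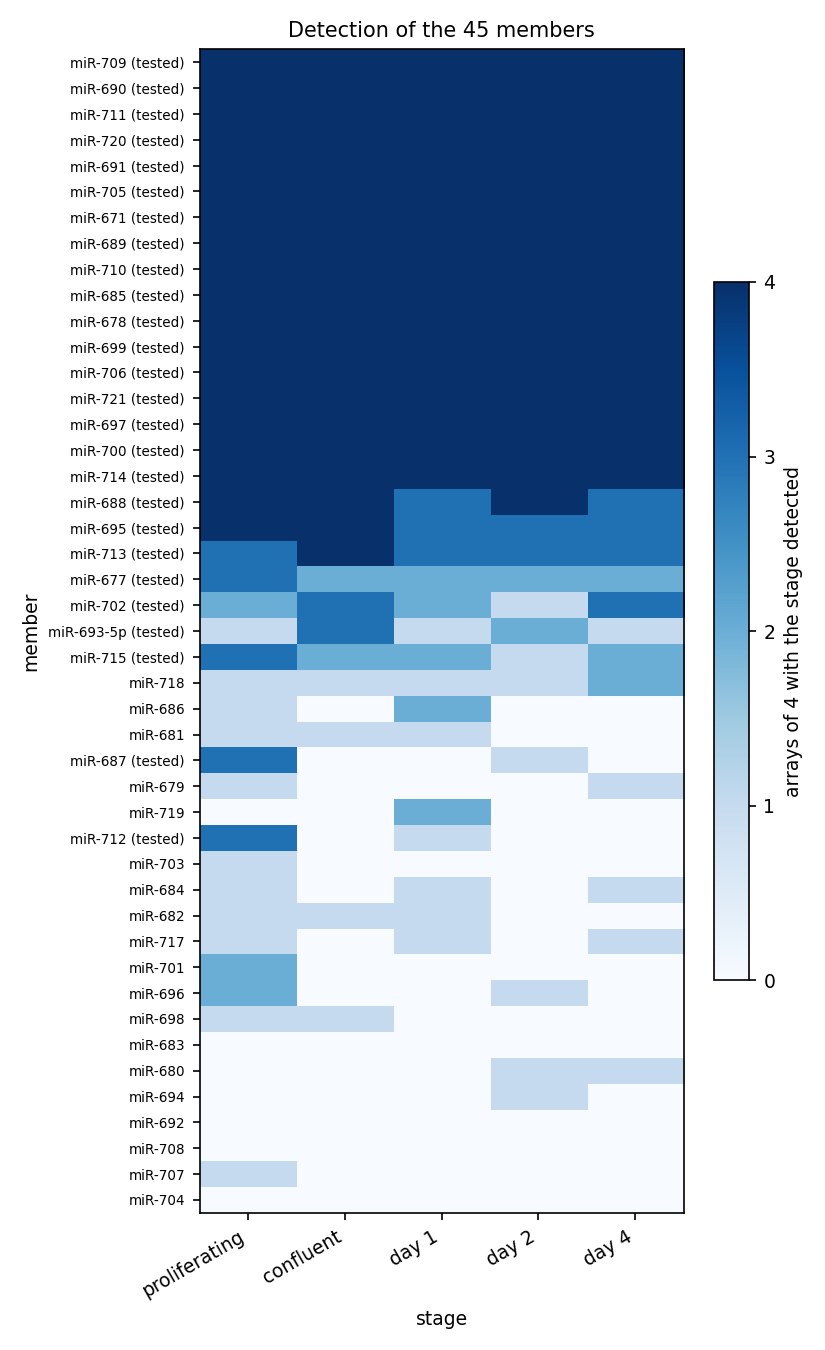
Detection of the 45 members (rows, ordered by how many of the 40 array channels detected them) at the 5 stages (columns, proliferating to day 4); colour gives how many of the 4 arrays detected the stage. The upper rows are dark at every stage, and the members not tested were seen on scattered arrays only.

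The number of members detected on at least 3 of 4 arrays was similar at all stages, with 24 in proliferating cells, 22 in confluent cells, 20 on day 1, 20 on day 2 and 21 on day 4. The proliferating count allowed either channel, since the channel of the sample is not known on those arrays. Tested only through the proliferating arrays were 4 members, namely miR-677, miR-687, miR-712 and miR-715. Their values at the other stages lay near the limit of detection. miR-693-5p, the only member whose probe named an arm, was tested through 3 confluent arrays, and its ratios are among the ranges below. The 19 members that were not tested were detected in 0 to 10 of the 40 array channels. miR-718 was nearest to the limit with 10. miR-696 was detected in 4 array channels, miR-679, of the imprinted Dlk1-Dio3 region, in 5, and miR-708 in 1. Only miR-704 was detected on no array. No level or change is given for these 19.

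The labels did not say which channel held the sample on which array. It was taken from the authors' deposited table of 1 value per stage, which was regressed on the 4 arrays of the stage over 121 detected mouse probes that were not members. The 4 arrays accounted for 58.4% of the variance of the deposited confluent values, for 91.5% on day 1, 95.7% on day 2 and 97.4% on day 4. The signs of the coefficients put the sample in red on 2 arrays and in green on 2 at each of these stages, as the design states. For the proliferating arrays the share was 4.87%, and these arrays have no direction here. The direction of all values is likely rather than settled, since it follows that of the deposited table. If that table ran the other way, every sign below would turn.

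Each ratio below is a log2 ratio of the stage to the proliferating pool, after removal of the red-over-green bias that the probe showed over all 20 arrays. The test was limma's moderated test on all 20 arrays, with Benjamini-Hochberg adjustment over the 180 tested mouse probes. As a check of the stages, miR-206 was higher than in the pool by 3.17, 3.77 and 4.16 on days 1, 2 and 4, and the joint probe of miR-133a and miR-133b was higher by 2.45, 3.57 and 3.86. All 3 muscle probes were tested. Of the markers of other tissues, 0 of 4 for blood, 0 of 2 for endothelium and 0 of 1 for liver were tested, against 1 of 2 for neurons (miR-124a) and 2 of 5 for epithelium (miR-200b and miR-203).

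miR-709 was higher than in the pool at every stage after proliferation, by about 1.5 to 1.7 fold. In confluent cells its 4 arrays had log2 ratios of 0.83, 0.61, 0.92 and 0.59. On day 1 they had 0.54, 0.58, 0.56 and 0.75, on day 2 0.84, 0.68, 0.84 and 0.23, and on day 4 0.60, 0.50, 0.78 and 0.87. All 16 arrays were above 0. The proliferating arrays, red over green with no direction, had 0.43, -0.30, 0.01 and -0.11. Every confluent, day 1 and day 4 array therefore lay farther from 0 than any proliferating array, while 1 day 2 array, at 0.23, lay among them.

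The means were 0.74 ± 0.16 in confluent cells, 0.61 ± 0.10 on day 1, 0.65 ± 0.29 on day 2 and 0.69 ± 0.17 on day 4 (SD, n = 4 arrays each). By limma the adjusted p was 3.29e-04 in confluent cells, 8.62e-04 on day 1, 1.56e-04 on day 2 and 4.93e-05 on day 4. In confluent cells miR-709 was the only call, 1 of 180 probes (0.556%), with 17 probes at an unadjusted p under 0.05. The call in confluent cells was lost when each print block was normalised apart (0.20, adjusted p = 0.467), and so were those on day 1 (0.09, adjusted p = 0.471) and day 2 (0.18, adjusted p = 0.131), while day 4 passed at 0.30. The confluent call was also lost under 3 of the 6 ways to take the proliferating arrays as the control, and with either other pairing of the confluent arrays (sizes of 0.02 and 0.14, adjusted p of 0.992 and 0.970), so it rests on the orientation taken from the data. The difference of day 4 from day 1 was 0.08 with a standard error of 0.16 (adjusted p = 0.878), which did not pass.

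The signals behind these ratios showed a large bias between the dyes. In confluent cells, with the sample in red, the sample gave 56156 and 48504 against 36053 and 34327 for the pool. With the sample in green it gave 60118 and 63213 against 26068 and 30893 for the pool. On day 4 the sample gave 56518 and 45664 in red, against 43126 and 37085 for the pool, and 53509 and 54005 in green, against 21231 and 14096 for the pool. After loess normalisation, which moved these ratios apart further, the mean log2 ratio was 0.12 with the confluent sample in red and 1.35 with it in green, and -0.05 in red and 1.42 in green on day 4. The dye effect of this probe, red over green, was -0.60 (SE 0.05, limma adjusted p = 2.98e-09), about as large as the change itself. The change is the mean over both orientations, 2 arrays each, and rests on that balance. The probe was also the first or the second of the 192 spots of its print block by signal on every array, and 6 of its 80 spot medians were over 60000, near the top of the scale. Their part in the result was not tested.

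**Figure D2:**
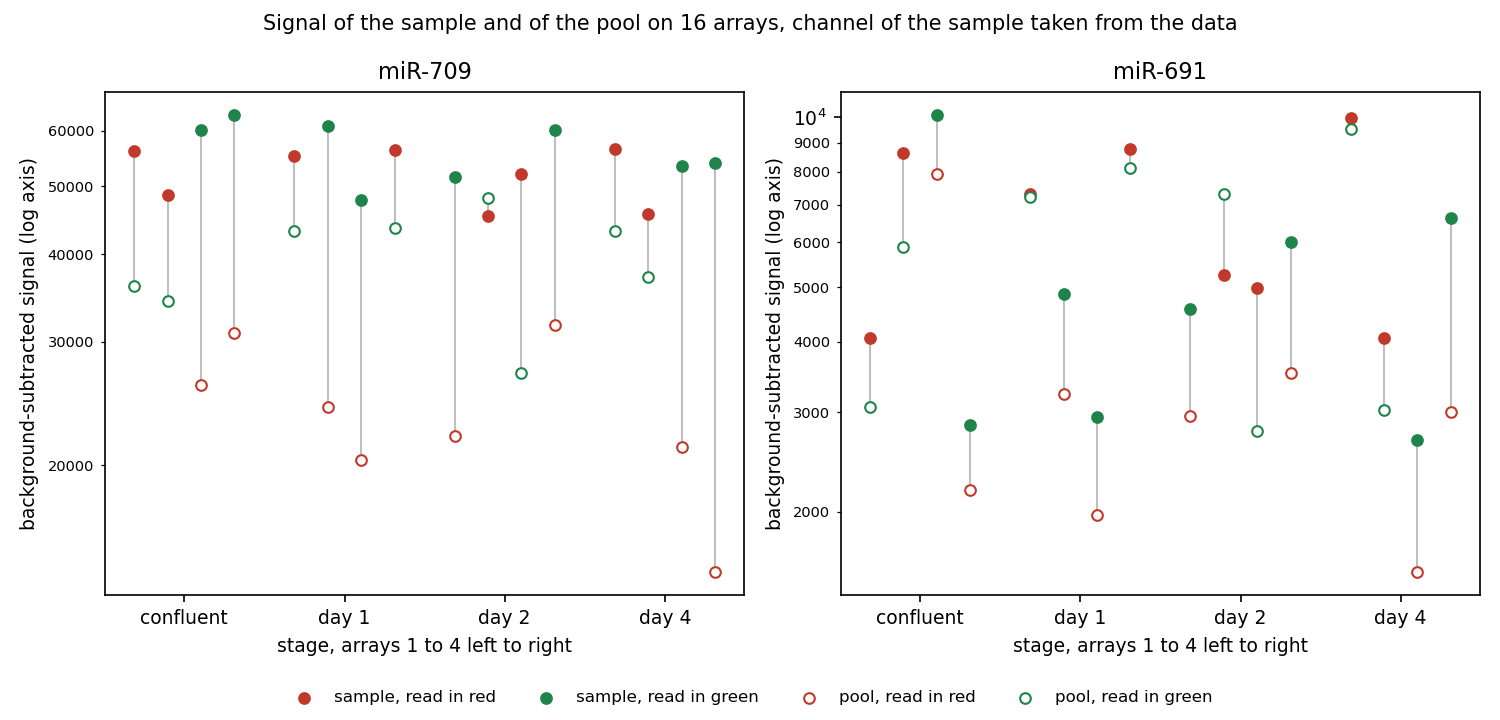
Background-subtracted signals (log axis) of the sample (filled) and of the pool (open) on the 16 arrays of the confluent, day 1, day 2 and day 4 stages, red and green by the channel each was read in, for miR-709 and miR-691. For miR-709 the sample exceeds the pool on all arrays but 1 of day 2 (45331 against 48084), and in confluent cells, on day 1 and on day 4 the gap is wider where the sample was read in green.

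miR-691 passed as higher than in the pool at the 3 differentiation stages, by about 1.3 to 1.4 fold. In confluent cells its mean was nearly that of day 1 but did not pass. Its log2 ratios were 0.45, 0.53, 0.25 and 0.13 in confluent cells and 0.25, 0.39, 0.37 and 0.35 on day 1. They were 0.39, 0.11, 0.74 and 0.31 on day 2 and 0.25, 0.64, 0.42 and 0.49 on day 4. The proliferating arrays, with no direction, had -0.40, -0.09, 0.18 and -0.25. All 16 ratios to the pool were above 0, but at each stage some lay within the range of sizes of the proliferating arrays. On day 1 all of them did.

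The mean of miR-691 was 0.34 ± 0.06 on day 1, 0.39 ± 0.26 on day 2 and 0.45 ± 0.16 on day 4 (SD, n = 4 arrays each), with limma adjusted p of 0.0411, 0.0159 and 0.00333. In confluent cells the mean was 0.34 ± 0.18 and did not pass (adjusted p = 0.223). The unadjusted limma p was 0.0060 in confluent cells and 0.0057 on day 1, so these 2 stages differed mainly through the adjustment. The day 4 signals with the sample in red were 9953 and 4070, against 9514 and 3034 for the pool. With the sample in green they were 2681 and 6617, against 1567 and 3004 for the pool. This probe too was brighter in green, with a dye effect of -0.35 (adjusted p = 2.95e-06). The day 4 call held in 20 of 23 alternative settings, against 14 of 23 for day 2 and 8 of 23 for day 1.

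miR-671 was higher than in the pool on day 1. The day 1 ratios were 0.19, 0.83, 0.40 and 0.26, with a mean of 0.42 ± 0.29 (SD, n = 4 arrays, limma adjusted p = 0.0102). The mean was 0.24 ± 0.12 in confluent cells, 0.12 ± 0.19 on day 2 and -0.08 ± 0.11 on day 4, none of which passed. The day 4 ratios, at -0.13, 0.02, -0.22 and 0.01, all lay below the 4 day 1 ratios. Day 4 was lower than day 1 by 0.50 on the log2 scale (SE 0.16, adjusted p = 0.0456). miR-671 was the only member among the 16 probes (8.89% of 180; 3.33% higher and 5.56% lower on day 4) called between these stages. Without the array at 0.83 neither call passed. The day 1 call held in 15 of 23 alternative settings, and under 1 of the 6 ways to take the proliferating arrays as the control. The difference between the days passed in 5 of 16 alternative settings. Among the 8 fits that each left out 1 array it passed in 2, and it was lost without any 1 of the day 4 arrays. Before the dye effect was removed, the day 1 mean of miR-671 was -0.11 with the sample in red and 0.95 with it in green.

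Lower than in the pool on day 4 were miR-699 and miR-690. The day 4 ratios of miR-699 were -0.71, -0.47, -0.51 and -0.76, with a mean of -0.61 ± 0.14 (SD, n = 4 arrays, limma adjusted p = 0.00333). Its means at the earlier stages were -0.04 ± 0.18 in confluent cells, -0.21 ± 0.50 on day 1 and -0.34 ± 0.28 on day 2. On day 1 its arrays were split, with -0.57 and -0.69 on 2 of them and 0.15 and 0.29 on the others. All day 4 arrays were below 0. The proliferating arrays, at -0.05, -0.63, 0.12 and -0.28, reached farther from 0 than the day 4 values of -0.47 and -0.51. The day 4 signals were 1081 and 509 for the sample in red, against 2097 and 833 for the pool, and 376 and 660 for the sample in green, against 421 and 914 for the pool. Taken against the proliferating arrays instead of the pool, it missed the threshold in 3 of the 6 ways to turn them, with ratios of -0.49, -0.37 and -0.57 (adjusted p of 0.158, 0.292 and 0.0743).

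The day 4 ratios of miR-690 were -0.35, -0.92, -0.39 and -0.48, with a mean of -0.53 ± 0.27 (SD, n = 4 arrays, limma adjusted p = 0.0205). In confluent cells the mean was -0.20 ± 0.22. On day 1 the arrays had -0.50, 0.46, -0.49 and 0.28, and on day 2 -0.21, 0.59, -0.73 and -0.23, so at both stages the 4 replicates fell on both sides of the pool. The proliferating arrays had 0.36, 0.09, -0.03 and 0.17. The fall on day 4 was not stable. It was 0.04 (adjusted p = 0.802) when each print block was normalised apart, and it passed under 0 of the 6 ways to take the proliferating arrays as the control. The spots of this probe were among the 3 brightest of their 192 on every array, and 1 of its 80 spot medians, at 65180, was over 60000.

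miR-697 was lower than in the pool on day 1. Its day 1 arrays had -0.40, -0.68, -0.52 and -0.10, with a mean of -0.43 ± 0.24 (SD, n = 4 arrays, limma adjusted p = 0.00539). The mean was -0.07 ± 0.17 in confluent cells, -0.13 ± 0.20 on day 2 and -0.12 ± 0.11 on day 4, none of which passed. The rise of its ratio by 0.30 between day 1 and day 4 did not pass either (SE 0.14, adjusted p = 0.228). All 4 day 1 arrays were below 0, and 1 of them, at -0.10, lay within the range of the proliferating arrays, which had -0.18, 0.19, 0.03 and 0.06. Without array 2, at -0.68, the call was lost. It was also lost with median centring (adjusted p = 0.0888) and under 4 of the 6 ways to take the proliferating arrays as the control.

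**Figure D3:**
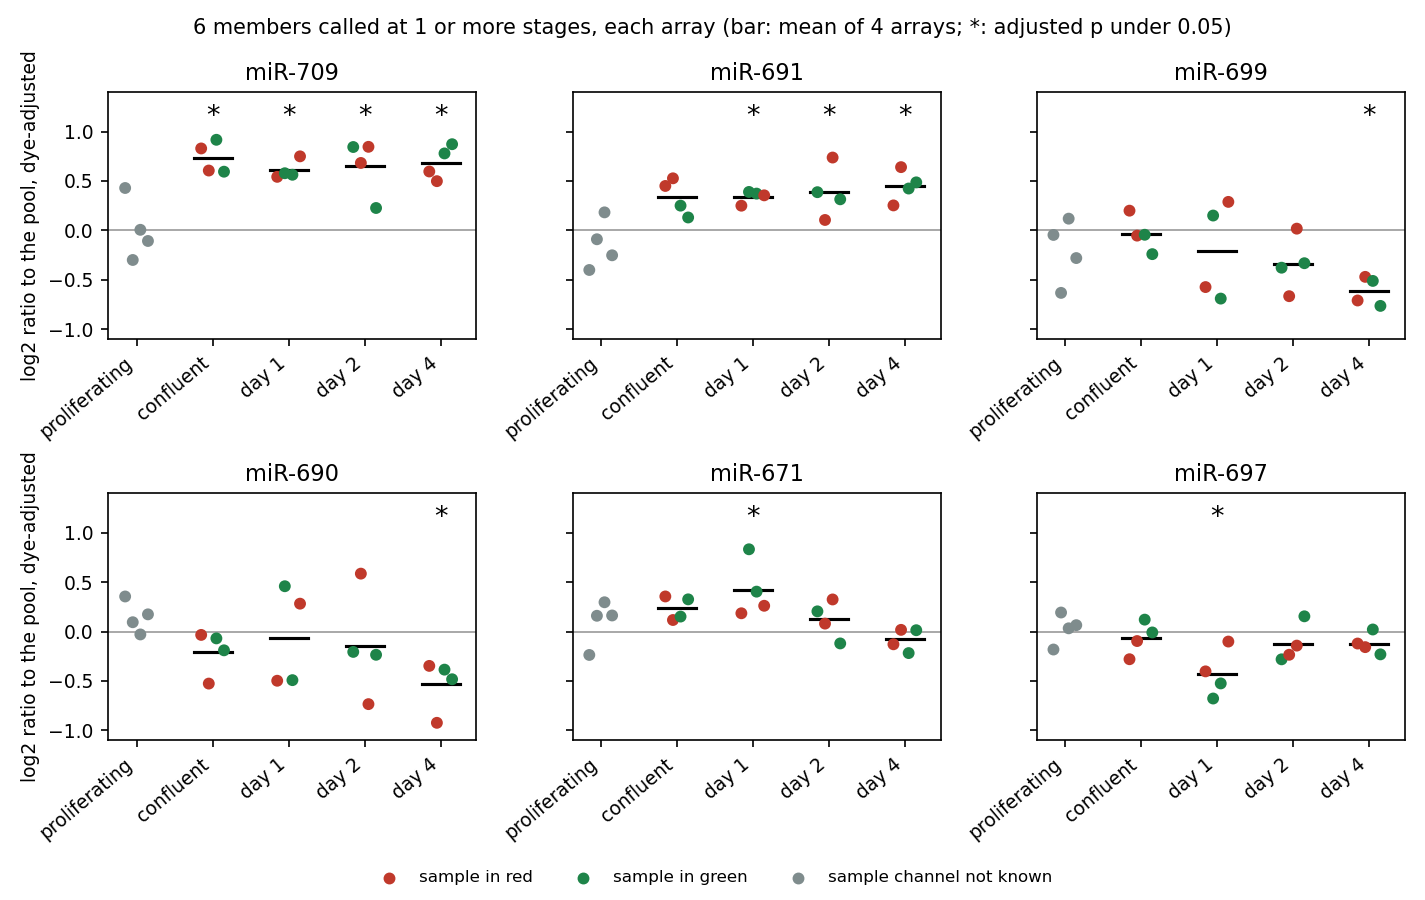
Dye-adjusted log2 ratio to the pool on each of the 4 arrays (points) per stage for the 6 members that passed at 1 or more stages; bars give the mean, stars an adjusted p under 0.05, and point colour the channel of the sample. Proliferating arrays (grey) are red over green with no direction. The points of miR-709 are all above 0 after proliferation, while those of miR-690 lie on both sides of 0 on days 1 and 2.

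The other members whose arrays were read one by one did not pass at any stage in the main setting. miR-689 is described first. It had log2 ratios of 0.37, 0.47, 0.74 and 0.16 in confluent cells, with a mean of 0.44 ± 0.24 (limma adjusted p = 0.223), and of 0.26, 0.31, 0.58 and 0.35 on day 1, with a mean of 0.38 ± 0.14 (adjusted p = 0.0813). The means were 0.10 ± 0.24 on day 2 and 0.04 ± 0.15 on day 4. All 8 confluent and day 1 arrays were above 0. However, the proliferating arrays had 0.25, -0.75, -0.48 and 0.29 and so spread more widely than these. With the repeat spots kept apart both stages passed (adjusted p of 0.0313 and 0.0246). miR-689 also passed in confluent cells and on days 1, 2 and 4 under 1 way to take the proliferating arrays as the control. The limma adjusted p were then 0.0013, 0.0013, 0.017 and 0.034. Day 1 passed as well without proliferating array 2 (adjusted p = 0.0434).

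miR-720, miR-711 and miR-705 were among the brightest members and did not pass in the main setting. In confluent cells miR-720 had -0.07, -0.32, 0.37 and 0.05. On day 1 it had -0.28, -0.35, -0.60 and -0.17, with a mean of -0.35 ± 0.18 (limma adjusted p = 0.169), beside proliferating arrays at 0.24, -0.53, -0.53 and 0.49. On day 2 it had -0.08, 0.42, -0.37 and -0.74 and on day 4 -0.27, -0.24, -0.03 and -0.25. With print-tip loess miR-720 passed on day 1 (-0.61, adjusted p = 0.00351) and on day 4 (-0.38, adjusted p = 0.0409), and it passed at 3 stages under 1 way to take the proliferating arrays as the control.

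For miR-711 the arrays had 0.12, -0.22, 0.20 and 0.02 in confluent cells, -0.30, 0.51, -0.19 and 0.23 on day 1, and 0.25, 0.66, 0.04 and -0.24 on day 2. On day 4 miR-711 had -0.01, -0.06, 0.03 and 0.02, a mean of -0.00 ± 0.04, and its 4 stage means lay between -0.00 and 0.18. The standard error of each was 0.15, and the proliferating arrays had 0.26, -0.42, -0.23 and 0.55. It passed on day 2 under 1 way to take the proliferating arrays as the control (adjusted p = 0.0430). The arrays of miR-705 had 0.10, 0.19, 0.30 and 0.05 in confluent cells and -0.03, -0.19, 0.06 and -0.27 on day 1. They had -0.11, -0.19, 0.23 and -0.11 on day 2 and 0.12, -0.12, -0.14 and -0.06 on day 4. For miR-705 the stage means ran from -0.11 on day 1 to 0.16 in confluent cells with a standard error of 0.09. Its proliferating arrays were close together, at -0.01, 0.02, -0.17 and -0.07. With print-tip loess miR-705 passed on day 2 (-0.21, adjusted p = 0.0457).

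The calls among the 26 tested members were read against those among all tested probes. On day 1 limma called 28 of the 180 mouse probes (15.6%; 10.6% higher and 5% lower) and 4 of the members (15.4%), of which 3 were higher and 1 was lower. Without array 2 of day 1 the calls over all probes fell to 13, and miR-709 alone was called among the members. On day 2 it called 36 of 180 (20%; 12.8% higher and 7.22% lower) and 2 members (7.69%), both higher. On day 4 it called 51 of 180 (28.3%; 15.6% higher and 12.8% lower) and 4 members (15.4%), 2 higher and 2 lower. None of these 3 shares was above that over all probes. The members passed because they were detected at some stage and are no sample of all 45. At an unadjusted p under 0.05 there were 5 members in confluent cells (19.2%), 9 on day 1 (34.6%), 4 on day 2 (15.4%) and 4 on day 4 (15.4%). Over all 180 probes the shares were 9.44%, 27.2%, 29.4% and 32.8% at the same stages.

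The sizes were also small beside the muscle miRNAs. The largest member ratio of any stage was 0.74 and the lowest was -0.61. The median log2 ratio of the 26 members was 0.08 in confluent cells, 0.07 on day 1, 0.01 on day 2 and -0.00 on day 4. Over all 180 probes it was -0.03, 0.00, -0.00 and 0.02 at the same stages. The median size of the change, without its sign, was 0.11 for the members on day 4 and 0.15 for all probes.

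**Figure D4:**
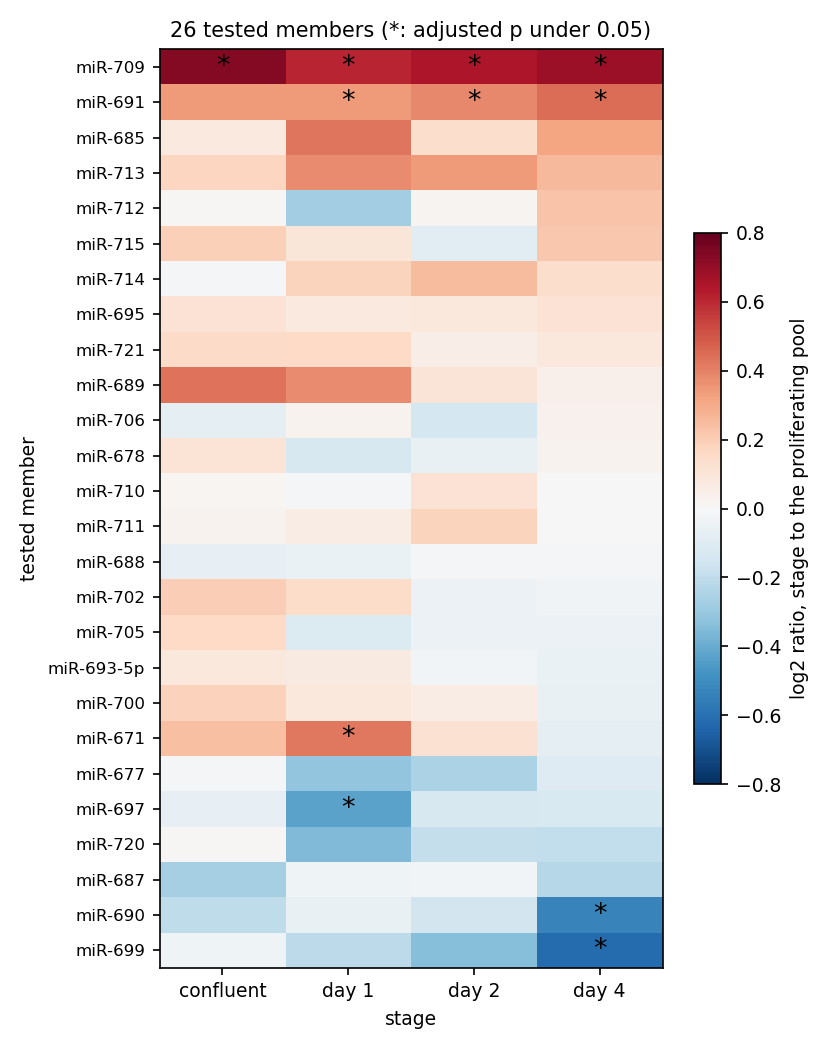
Log2 ratio to the proliferating pool (colour, red higher and blue lower) for the 26 tested members (rows, ordered by day 4) at the confluent, day 1, day 2 and day 4 stages (columns); stars mark an adjusted p under 0.05. Stars stand in the rows of 6 members, and miR-709 is the only row starred at all 4 stages.

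**Figure D5:**
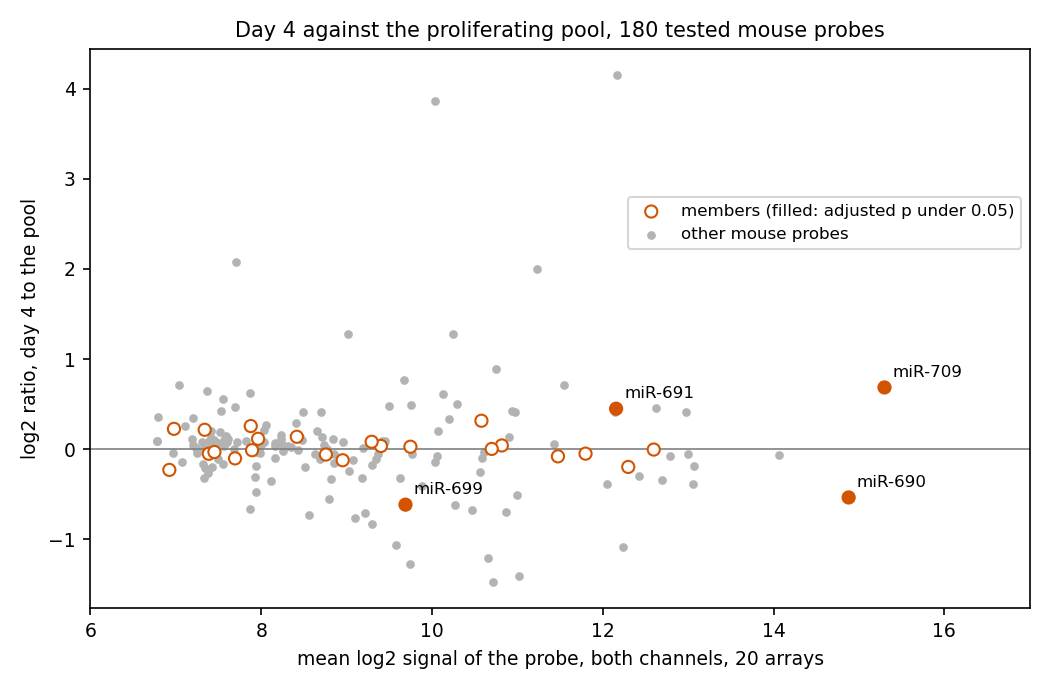
Log2 ratio of day 4 to the pool (vertical axis) against the mean log2 signal of the probe (horizontal axis) for the 180 tested mouse probes. The 26 members (orange) lie between -0.61 and 0.69, and the 4 that passed are filled and named.

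The arrays beyond the proliferating spread were counted without a test, on the ratios from which the model's dye effect had been removed. All 4 arrays of a stage lay on the same side of 0 and farther from it than any proliferating array for 2 of the 180 probes in confluent cells (1.11%), 7 on day 1 (3.89%), 17 on day 2 (9.44%) and 27 on day 4 (15%). Among the members this held for miR-709 alone, in confluent cells, on day 1 and on day 4, and for none on day 2.

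More members passed for the dye effect than at any stage. The counts cannot show which was more common, because the dye effect was estimated more precisely. For miR-709 its standard error was 0.05, against 0.12 at each stage. The red-over-green effect passed for 117 of the 180 probes (65%; 36.7% brighter in red and 28.3% brighter in green). It passed for 17 of the 26 members (65.4%), 8 brighter in red and 9 brighter in green, a share close to that over all probes. Among the members the dye effect was largest for miR-709 at -0.60 and next for miR-689 at -0.42. On the other side, miR-678 had 0.38, miR-690 0.36 and miR-688 0.36, with limma adjusted p of 3.64e-07, 3.26e-04 and 8.27e-06. For each of the 4 members called on day 4 the dye effect was smaller than the change, and for each of them the dye effect itself passed. For miR-691 on day 1 the dye effect, at -0.349, was slightly larger in size than the change of 0.341.

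The authors' deposited table gave miR-709 as 0.41 in confluent cells, 0.22 on day 1, 0.35 on day 2 and 0.40 on day 4, which is lower than the ratios above at each stage. For miR-691 the authors' deposited table had 0.49, 0.38, 0.49 and 0.56 at the same stages, and for miR-690 it had -0.40, -0.33, -0.37 and -0.72. The authors' deposited table gave miR-671 as 0.39 on day 1 and -0.04 on day 4, and miR-699 as -0.47 on day 4. The sign was that of the ratios above for 20 of the 26 members in confluent cells, 20 on day 1, 24 on day 2 and 21 on day 4. The scale and centring of that table are not stated, and since it set the orientation of the arrays it is no independent check.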

How the data were processed

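Each of the 5 stages had 4 array files. The authors deposited, per the file headers, the median and mean foreground and a morphological background intensity per spot and channel, with no normalisation. Their deposited log2 ratios were those of red to green medians less background, to within 5e-10. The scanner and its software are not given in the sources used here. Intensities were background-corrected with normexp (offset 50), normalised by global loess with 176 control or blank spots at weight 0, and averaged over spots with limma 3.58.1 in R 4.3.3. The model had a dye term and 4 stage effects (15 residual degrees of freedom), with Benjamini-Hochberg adjustment, a threshold of 0.05, over 180 probes. The number of arrays limits the precision. The replicates are biological per the labels.

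The plan took array orientation from opposed pairs of arrays. Regression on the authors' deposited table of log2 values replaced it after the files were seen, which also gave the confluent arrays an orientation, on weaker evidence. Arrays of days 1, 2 and 4 turned alike then correlated at 0.532 to 0.931 over 154 probes that were not members, and confluent ones at 0.126 to 0.265. The pool as control leaves out the spread of proliferating cells.

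Values on each array are given for members called at a stage, for the 6 tested members of highest mean signal, and for miR-671, miR-689, miR-690, miR-691 and miR-709. Members called for the dye effect only are given by count and example. miR-675 was not among the probes and miR-696 was not tested. The members and lists were chosen with earlier results of these data known. The model was also run on simulated log ratios with known effects and a known orientation of the arrays. That run could not address how the orientation was found or how the arrays were normalised. Background correction, normalisation, filter, spot handling, control and left-out arrays were varied.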

Additional observations from a re-analysis of the deposited data

Results flagged for a closer look

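Only a pair of results stood out. The ratio of miR-671 was lower on day 4 than on day 1 by a log2 difference of -0.50 (limma adjusted p = 0.0456), which is a difference between stages under the same contrast. For miR-720 on day 4, array 3 had a log2 ratio of -0.026 and lay apart from the other 3 arrays, which had -0.27 to -0.24. It was the only such array in 50 groups of 4 examined for 10 members, where chance alone marks about 1 group in 20.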

How the results depend on the processing

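On day 4 miR-709 passed in all 23 alternatives tried, with log2 ratios of 0.30 to 0.99. It passed in 21 of 23 on day 2, 19 of 23 on day 1 and 19 of 25 in confluent cells. The only reversal was miR-690 on day 4, at 0.045 with print-tip loess. The cause was not tested.

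Counts of members called moved by over 1.5 times as follows. Print-tip loess gave 0 for confluent cells, 0 for day 4 against day 1 and 9 for the dye effect (17 with global loess). Median centring gave 1 on day 1, 1 on day 2 and 0 for day 4 against day 1. That last count was also 0 with no filter on dim probes and 0 with the compared stages alone, which gave 1 on day 2. Spots kept apart gave 3 in confluent cells, and deposited log ratios gave 1 on day 2. With the proliferating arrays as control, turned in ways 1 to 6, day 1 had 0, 0, 1 and 2 in ways 1, 2, 4 and 5, and day 2 had 0, 4, 1 and 1 in ways 2 to 5. Day 4 had 2 in each of ways 1, 5 and 6. Confluent cells had 0 in ways 1 to 3 and 2 in ways 4 and 6, and 0 with either other pairing of their arrays. Percentile 99, mean intensities or both spots left 21 to 25 members tested.

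Leaving out 1 array at a time gave 1 to 5 calls on day 1, 1 to 3 on day 2, 3 to 4 on day 4, 1 in confluent cells, 0 to 2 for day 4 against day 1 and 16 to 18 for the dye effect. Day 1 fell to 1 without array 2. Day 2 fell to 1 without array 1 or 3. The count for day 4 against day 1 was 0 without day 1 array 2 or any day 4 array, and 2 without day 1 array 1. No paired analysis was possible because the labels give no replicate numbers.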

Other observations

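The proliferating arrays were also set against the pool in each of the 3 ways to pair them 2 against 2. Over the 180 probes these gave 0, 0 and 3 calls, with 0, 0 and 1 of them among the members. The largest member sizes were 0.40 for miR-687, 0.40 for miR-685 and 0.45 for miR-720, while miR-709 had sizes of 0.06, 0.21 and 0.15.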
